A study of Mus musculus with 12 samples.

Results

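The proteasome genes described here are the 43 rows of the deposited expression tables whose symbol begins with Psma, Psmb, Psmc, Psmd, or Psme followed by a digit. The rule refers to the symbol alone, though it was set with earlier results of these data known. The same 43 symbols were found among the 11077 genes listed for Th17 versus Th0 and among the 11056 genes listed for iTreg versus Th0, and all 43 passed the filter on low values (more than 1 FPKM, an expression level scaled by gene length and sequencing depth, in at least 4 of 8 libraries). By textbook role they comprised 3 constitutive catalytic, 3 immune catalytic, and 11 other core subunits, 9 base and 8 lid subunits of the regulatory particle, 3 assembly chaperones, 5 activators, and Psmc3ip, which carries a subunit's name but is not a subunit.

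Naive CD4+ T cells from the spleens of C57BL/6 mice, 8 to 10 weeks old, were stimulated in every group with plate-bound anti-CD3 and anti-CD28 (1 μg/ml each), and RNA was sequenced from 4 cultures a group on day 3. Th0 cultures received nothing else. Th17 cultures also received IL6 (30 ng/ml), TGFb1 (5 ng/ml), and 10 μg/ml each of neutralizing anti-IL4 and anti-IFNγ, and iTreg cultures received IL2 (10 ng/ml) and TGFb1 (10 ng/ml). These doses are those of the labels, and the methods of the study give a higher TGFb1 dose for iTreg cultures. Interferon γ was thus neutralized in the Th17 cultures only, and what the antibodies and what the cytokines contributed cannot be told apart. Each comparison has its own table, and both tables hold the same 4 Th0 libraries. Libraries are named by group and by the beginning of their column heading, which is M22, M29, M42, or M43, and values of a group are given in that order.

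The proteasome degrades proteins marked with ubiquitin. Its barrel-shaped 20S core has rings of alpha and beta subunits, of which a few beta subunits cut peptide bonds, and the 19S regulatory particle, made of an ATP-driven base and a lid, binds, unfolds, and feeds in the substrate. In lymphocytes and in cells exposed to interferon γ, the constitutive catalytic subunits are partly replaced by immune counterparts, PSMB8 (LMP7) for PSMB5, PSMB9 (LMP2) for PSMB6, and PSMB10 (MECL-1) for PSMB7, which gives the immunoproteasome, known for producing peptides that major histocompatibility complex (MHC) class I molecules present. The PA28 activator, a ring of PSME1 and PSME2, opens the core and is also known as an interferon γ target.

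The promoters of Psmb8, Psmb9, and Psme1, which fell in Th17 cells, and of the constitutive counterparts Psmb5 and Psmb6 are shown because the results turn on the contrast between them. The windows run from 250 bases before to 50 after the RefSeq start on GRCm38.p6, 5′ to 3′ on the gene's strand, with matches of 3 searched motifs in capitals. They lie at chr17:34197945-34198244 on the plus strand (Psmb8), chr17:34187281-34187580 on the minus strand (Psmb9), chr14:55578244-55578543 on the plus strand (Psme1), chr14:54617946-54618245 on the minus strand (Psmb5), and chr11:70525107-70525406 on the plus strand (Psmb6).
Psmb8: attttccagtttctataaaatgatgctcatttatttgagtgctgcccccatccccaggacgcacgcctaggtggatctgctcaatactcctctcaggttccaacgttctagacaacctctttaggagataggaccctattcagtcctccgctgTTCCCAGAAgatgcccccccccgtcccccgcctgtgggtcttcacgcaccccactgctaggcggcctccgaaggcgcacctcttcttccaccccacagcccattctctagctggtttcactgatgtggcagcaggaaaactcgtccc
Psmb9: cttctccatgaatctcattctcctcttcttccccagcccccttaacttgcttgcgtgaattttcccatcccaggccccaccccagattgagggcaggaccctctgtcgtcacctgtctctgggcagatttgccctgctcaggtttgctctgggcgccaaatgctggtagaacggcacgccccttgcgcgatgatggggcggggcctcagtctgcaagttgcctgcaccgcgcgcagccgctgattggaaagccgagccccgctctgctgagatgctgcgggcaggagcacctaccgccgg
Psme1: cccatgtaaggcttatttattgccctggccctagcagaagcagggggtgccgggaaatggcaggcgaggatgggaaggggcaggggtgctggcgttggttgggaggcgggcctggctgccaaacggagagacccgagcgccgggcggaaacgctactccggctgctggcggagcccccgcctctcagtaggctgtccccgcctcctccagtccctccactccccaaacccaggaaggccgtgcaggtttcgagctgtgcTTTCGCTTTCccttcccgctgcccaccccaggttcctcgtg
Psmb5: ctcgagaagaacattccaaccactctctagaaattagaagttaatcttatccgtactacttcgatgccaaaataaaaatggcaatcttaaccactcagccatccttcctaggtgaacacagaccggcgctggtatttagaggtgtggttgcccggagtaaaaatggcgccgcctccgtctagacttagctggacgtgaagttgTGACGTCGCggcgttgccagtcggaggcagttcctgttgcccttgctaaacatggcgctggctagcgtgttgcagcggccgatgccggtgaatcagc
Psmb6: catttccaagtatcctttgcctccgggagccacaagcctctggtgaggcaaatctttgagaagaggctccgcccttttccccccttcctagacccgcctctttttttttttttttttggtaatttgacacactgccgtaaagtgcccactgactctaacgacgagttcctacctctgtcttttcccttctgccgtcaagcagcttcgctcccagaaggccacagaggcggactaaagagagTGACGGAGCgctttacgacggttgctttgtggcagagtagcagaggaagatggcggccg

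The motifs were GAAA followed by another GAAA 2 bases further on, bound by interferon regulatory factors, TTCNNNGAA, the gamma-activated site bound by STAT proteins, and TGACNNNGC, the core of the antioxidant response element, each searched on both strands. The capitals in Psmb8 are a gamma-activated site motif 97 bases before the start, those in Psme1 an interferon regulatory factor motif 9 bases after it, and those in Psmb5 and Psmb6 antioxidant response element motifs 47 and 9 bases before it. The Psmb9 window held none of the 3. It shares 275 of its 300 bases with the window of Tap1, a peptide transporter gene transcribed in the opposite direction. Psme2, which also fell in Th17 cells, is not shown, and its windows held none of the 3 either. Windows were found for 37 of the 43 genes, and not for Psmb1, Psmb2, Psmb7, Psmc3, Psmd3, and Psmd7. The interferon regulatory factor motif occurred in windows of Psmb3, Psmd4, Psmd9, and Psme1 and in 3.44% of all 32851 windows, the gamma-activated site motif in those of Psmb8 and Psmd2 and in 8.3% of all, and the antioxidant response element motif in those of Psmb5, Psmb6, Psmc6, Psmd12, Psmd9, and Psme4 and in 12.4% of all. The windows of Psmb8, Psmb9, and Psme1 lie wholly inside the GENCODE spans of these genes, which are printed below. Sequence before the GENCODE starts of these genes was thus not searched. A match describes the letters of the window and shows no binding.

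In the Th17 libraries Il17f, and in the iTreg libraries Foxp3, was higher than in Th0 (log2 fold changes of 8.64 and 3.81, with limma adjusted p of 8.4e-07 and 0.00013). One Th17 library stood apart: Foxp3 was at 42.5 FPKM in Th17 M43, against 0.499, 0.502, and 4.5 FPKM in the others, and results are therefore also given without it. Of 16 marker genes for CD8 T, B, myeloid, antigen-presenting, and NK cells, 7 were listed for Th17 versus Th0, and their summed level was 25.0 to 46.3 FPKM in Th0 and 12.7 to 40.2 FPKM in Th17 libraries. The 5 listed for iTreg versus Th0 summed to 24.5 to 42.1 FPKM in Th0 and 19.3 to 45.7 FPKM in iTreg libraries. Relative sequencing depth, read from low values, ran from 0.843 to 1.08 of the median library in the Th17 table and from 0.825 to 1.19 in the iTreg table. RNA came from whole cultures, so fewer cells expressing a gene and less RNA per cell cannot be told apart.

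In Th17 cells the immune catalytic genes Psmb8 and Psmb9 and the PA28 genes Psme1 and Psme2 fell, while no gene of the constitutive core, base, or lid was called. These were 4 of the 43 proteasome genes, all lower and none higher, at a limma adjusted p under 0.05 over all 10269 tested genes, of which 8.69% were called lower and 10.6% higher. At an unadjusted p under 0.05 there were 6. The share of all tested genes at that unadjusted level is not given, here or below, so such counts show no excess. The groups did not overlap for 4 of 43, against 23.8% of all tested genes. The median log2 fold change of the 43 was -0.08, beside -0.00071 over all tested genes.

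In iTreg cells Psmb8 also fell, by less, and the lid gene Psmd7 and the Psme2 copy Psme2b rose. With 2 higher and 1 lower of 43, the background was 8.36% called higher and 8.21% called lower among 10208 tested genes. The groups did not overlap for 8 of 43, against 22.8% of all. The median log2 fold change was 0.13, beside 0.011 over all tested genes.

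**Figure D1:**
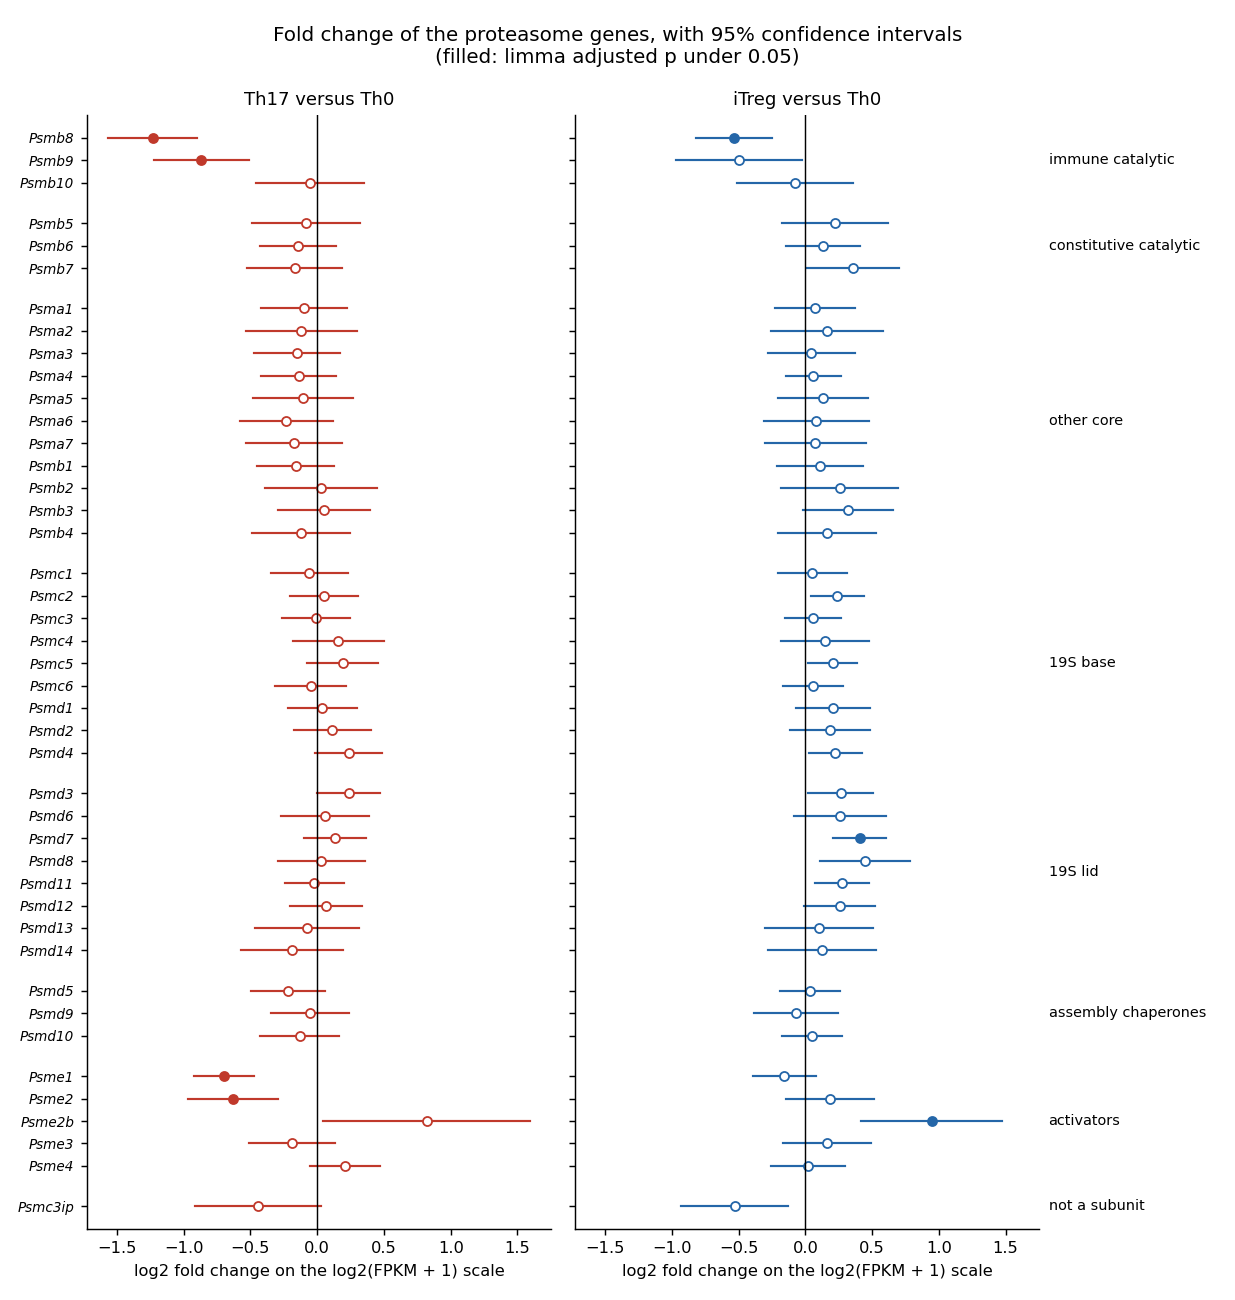
Log2 fold change on the log2(FPKM + 1) scale (horizontal axis) of each of the 43 genes against Th0, with 95% confidence intervals and genes grouped by role, for Th17 (left) and iTreg (right), filled where the limma adjusted p was under 0.05. Psmb8, Psmb9, Psme1, and Psme2 lie to the left in Th17, and all 17 base and lid genes lie to the right of 0 in iTreg.

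Libraries whose headings share a beginning deviated together, and with that beginning as a block in the model more genes were called, in the whole table as among the proteasome genes. In Th17 cells 6 of 43 were then called, 5 lower (18.6% of all tested genes) and 1 higher (19.2%), the additional ones being Psmc3ip (lower, adjusted p = 0.029) and Psme2b (higher, adjusted p = 0.033). In iTreg cells 14 of 43 were called with the block, 12 higher (20.9% of all tested genes) and 2 lower (20%). The 14 included the 3 called without it.

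Psmb8, which encodes the immune counterpart of the chymotrypsin-like subunit PSMB5, was at 132, 111, 125, and 139 FPKM in Th0 and at 48.1, 46.2, 51.8, and 69.7 FPKM in Th17 libraries. Every Th17 library was below every Th0 library, and the highest of them was M43, the library with high Foxp3. With means of 127 ± 12.2 and 54.0 ± 10.8 FPKM (SD, n = 4), Psmb8 had a log2 fold change of -1.23 (SE 0.15, limma adjusted p = 0.00056), or -1.36 without Th17 M43 (limma adjusted p = 0.00032). In the iTreg table, Psmb8 was at 131, 110, 124, and 138 FPKM in Th0 and at 95.1, 98.2, 74.1, and 78.9 FPKM in iTreg libraries, again without overlap. The iTreg log2 fold change was -0.54 (SE 0.12, limma adjusted p = 0.020), and it was not called without Th0 M22, Th0 M43, or iTreg M43 (limma adjusted p up to 0.059), with values from -0.60 to -0.46 over all single omissions. The gene lies at chr17:34197721-34201454 on the plus strand of GRCm38, inside the MHC region, and shares 14.7% of its exonic bases with the annotated gene Gm20496, so reads there cannot be assigned to one of them.

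Psmb9, the immune counterpart of the caspase-like subunit gene Psmb6, was at 80.0, 68.1, 95.9, and 90.6 FPKM in Th0 and at 37.6, 40.1, 50.8, and 53.7 FPKM in Th17 libraries. The groups did not overlap, and the fall was 0.87 on the log2 scale (-0.87, SE 0.16, limma adjusted p = 0.0054), or -0.95 without Th17 M43. In iTreg libraries it was at 63.4, 83.0, 50.2, and 42.3 FPKM, against 79.1, 67.5, 94.8, and 89.5 FPKM in Th0 of that table. Psmb9 was lower than the Th0 library of the same beginning in M22, M42, and M43 and higher in M29, and the difference was not called (-0.50, SE 0.21, limma adjusted p = 0.15), although it was called when iTreg M29 was left out. Psmb9 lies at chr17:34181987-34187764 on the minus strand, with Tap1 between it and Psmb8, and shares 5.79% of its exonic bases with Tap1.

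Psmb10, the immune counterpart of the trypsin-like subunit gene Psmb7, lies on another chromosome (chr8:105935735-105938444, minus strand) and was the least abundant of the catalytic genes. It was at 27.4, 16.8, 18.7, and 25.6 FPKM in Th0 and at 24.9, 20.4, 17.2, and 21.6 FPKM in Th17 libraries, and the groups overlapped. The log2 fold change was -0.06 (95% confidence interval -0.46 to 0.35, limma adjusted p = 0.86). In iTreg libraries it was at 23.3, 24.8, 16.5, and 17.9 FPKM against 27.1, 16.7, 18.5, and 25.2 FPKM in Th0, with a log2 fold change of -0.07 (-0.51 to 0.36, limma adjusted p = 0.84). The sign of both small differences depended on which library was left out.

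**Figure D2:**
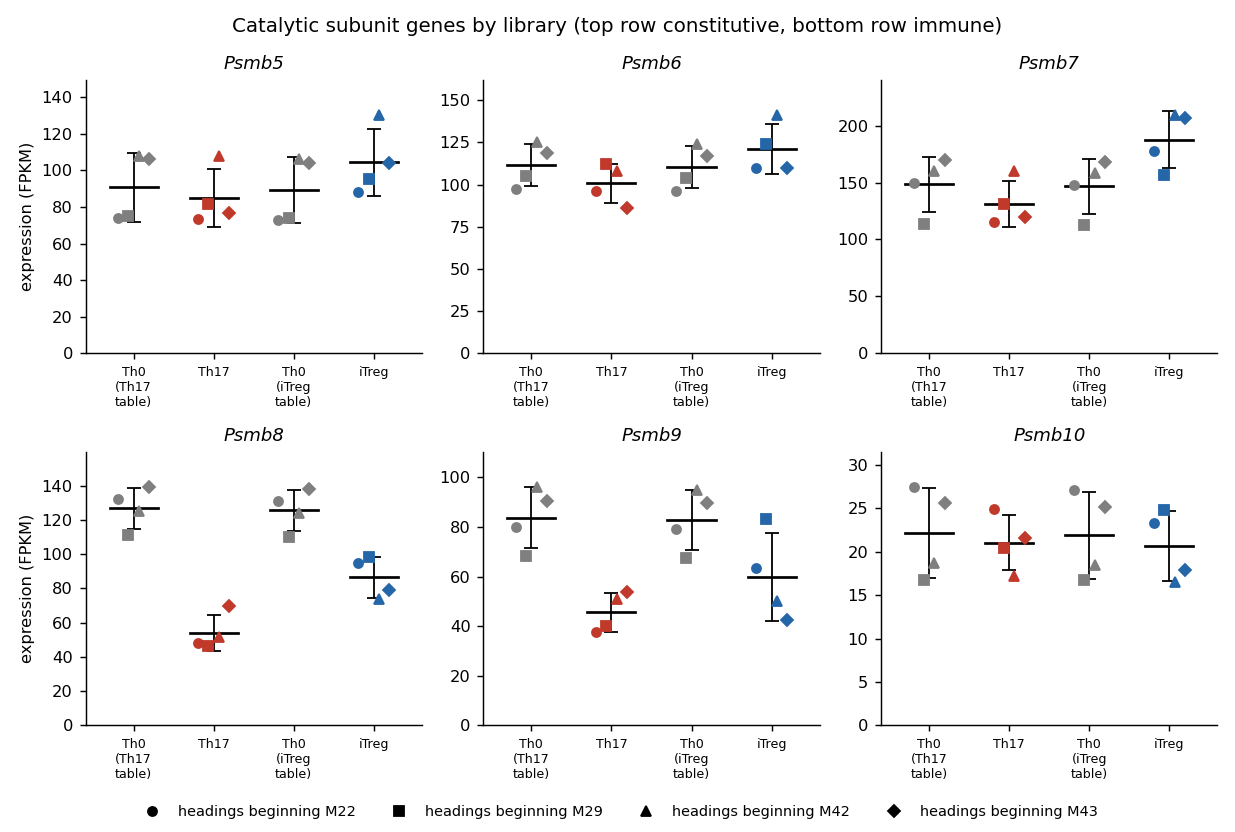
Expression in FPKM (vertical axes, starting at 0) of the 3 constitutive (top) and 3 immune (bottom) catalytic genes in each library, with the 4 Th0 libraries shown once for each table, bars for mean ± SD, and a marker shape for each heading beginning. Psmb8 and Psmb9 are below all Th0 libraries in all 4 Th17 libraries, while Psmb10 and the constitutive genes overlap between Th17 and Th0.

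None of the 3 constitutive catalytic genes was called in either comparison by limma, and 1 of the 3 had an unadjusted p under 0.05, in iTreg cells only. Psmb5 was at 73.9, 74.9, 108, and 106 FPKM in Th0 and at 73.3, 81.5, 108, and 76.8 FPKM in Th17 libraries, a log2 difference of -0.09 (-0.49 to 0.32). Psmb6 was at 97.4, 105, 125, and 119 FPKM in Th0 and at 96.3, 112, 108, and 86.4 FPKM in Th17 libraries, a log2 difference of -0.15 (-0.43 to 0.14). The Psmb5 range was nearly the same in both groups, while for Psmb6 both ends of the range were lower in Th17 cells. Psmb7 was at 150, 114, 160, and 170 FPKM in Th0 and at 115, 131, 160, and 120 FPKM in Th17 libraries (-0.17, -0.53 to 0.19).

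In iTreg libraries Psmb5 was at 88.0, 95.2, 130, and 104 FPKM (log2 difference 0.22, limma adjusted p = 0.45) and Psmb6 at 110, 124, 141, and 110 FPKM (0.13, limma adjusted p = 0.53). Psmb7 was at 178, 157, 209, and 207 FPKM in iTreg against 148, 113, 158, and 168 FPKM in Th0 libraries of that table. It was higher in the iTreg library of each of the 4 heading beginnings, and its log2 difference of 0.36 had a limma adjusted p of 0.15 without and 0.0071 with the heading block. Psmb7 shares 11.8% of its exonic bases with Nek6 and Psmb5 12.1% with Mir686.

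Ratios within a library do not depend on how a table was scaled. The ratio of Psmb8 to Psmb5 was 1.79, 1.48, 1.16, and 1.32 in Th0, 0.656, 0.566, 0.481, and 0.909 in Th17, and 1.08, 1.03, 0.571, and 0.760 in iTreg libraries. All Th17 and all iTreg libraries were below all Th0 libraries. The mean log2 ratio was 1.16 lower in Th17 (-1.16, exact two-sided permutation p = 0.029, 0.086 adjusted over 9 ratio comparisons) and 0.77 lower in iTreg (-0.77, the same p values), and 0.029 is the smallest p that 4 against 4 libraries can give. Without Th17 M43 the Th17 difference was -1.33.

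The Psmb9 to Psmb6 ratio was 0.821, 0.649, 0.766, and 0.764 in Th0, 0.390, 0.359, 0.469, and 0.622 in Th17, and 0.576, 0.671, 0.357, and 0.386 in iTreg libraries. Th17 and Th0 did not overlap (log2 difference -0.73, exact permutation p = 0.029, adjusted p = 0.086), while iTreg M29 lay inside the Th0 range (-0.64, exact permutation p = 0.057, adjusted p = 0.129). Psmb10 to Psmb7 overlapped in all comparisons, with log2 differences of 0.11 in Th17 (exact permutation p = 0.657) and -0.44 in iTreg cells (exact permutation p = 0.2).

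Between Th17 and iTreg cells the log2 ratios differed by -0.39 for Psmb8 to Psmb5, -0.10 for Psmb9 to Psmb6, and 0.55 for Psmb10 to Psmb7 (Th17 minus iTreg, with 0.171 the smallest exact permutation p of the 3). All 3 ratios overlapped between these groups, and none of the 9 ratio comparisons was under 0.05 after adjustment. The 3 immune genes made up 37.9 to 42.7% of the summed FPKM of the 6 catalytic genes in Th0, 24.2 to 33.9% in Th17, and 22.7 to 35.4% in iTreg libraries. Neither polarized group overlapped with Th0 in this share. The highest Th17 library was M43, and the other 3 reached 28.0%.

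**Figure D3:**
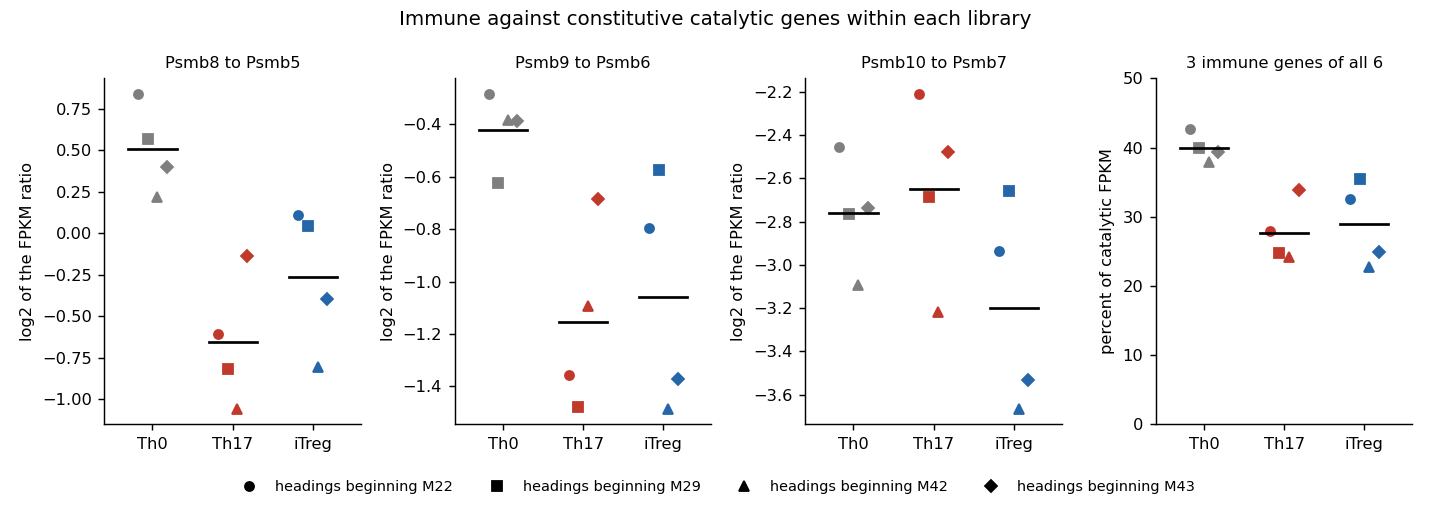
Log2 of the FPKM ratio of each immune catalytic gene to its constitutive counterpart, and the percentage of catalytic FPKM from the 3 immune genes (vertical axes), in each Th0, Th17, and iTreg library, with bars for group means and a marker shape for each heading beginning. For Psmb8 to Psmb5 and for the share, all 8 polarized libraries are below all 4 Th0 libraries, while Psmb10 to Psmb7 overlaps.

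Of the 5 activator genes, Psme1 and Psme2 fell in Th17 cells. Psme1, the alpha chain of PA28, was at 263, 234, 274, and 279 FPKM in Th0 and at 165, 170, 155, and 153 FPKM in Th17 libraries, without overlap and with little spread among the Th17 libraries. Its log2 fold change was -0.70 (SE 0.10, limma adjusted p = 0.0014), and it was called whichever library was left out (-0.75 to -0.67). In iTreg libraries it was at 240, 258, 226, and 207 FPKM against 260, 232, 271, and 276 FPKM in Th0, which overlapped (-0.16, limma adjusted p = 0.36).

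Psme2, the beta chain, was at 176, 142, 220, and 208 FPKM in Th0 and at 113, 126, 128, and 108 FPKM in Th17 libraries. The groups did not overlap, and the log2 fold change was -0.63 (SE 0.15, limma adjusted p = 0.019), but the call was lost without Th17 M22, Th17 M43, Th0 M42, or Th0 M43 (-0.59 and limma adjusted p = 0.051 without Th17 M43, with 0.060 the highest). In iTreg libraries Psme2 was at 201, 207, 230, and 191 FPKM against 174, 141, 218, and 205 FPKM in Th0 (0.18, limma adjusted p = 0.46). Psme1 (chr14:55578123-55581529, plus strand) and Psme2 (chr14:55587441-55591113, minus strand) lie close together, with Emc9 between them.

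Psme2b, an annotated copy of Psme2 on another chromosome (chr11:48945354-48946190, minus strand), was at 2.14, 3.85, 2.04, and 2.63 FPKM in Th0 and at 4.17, 5.88, 2.69, and 11.4 FPKM in Th17 libraries. It was higher than Th0 in each of the 4 heading beginnings but not called without the heading block (0.82, limma adjusted p = 0.13), and without Th17 M43 the log2 difference was 0.50. In iTreg libraries it was at 5.1, 9.56, 4.29, and 5.59 FPKM against 2.12, 3.81, 2.02, and 2.6 FPKM, without overlap (0.95, SE 0.23, limma adjusted p = 0.025). That call was lost without Th0 M22, Th0 M42, Th0 M43, or iTreg M43 (limma adjusted p up to 0.071). Over 794 aligned bases the Psme2 and Psme2b transcripts are 99.4% identical, so the division of reads between them, and with it both values, is uncertain.

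Psme3 encodes a nuclear activator related to PA28, and Psme4 encodes PA200. Psme3 was at 111, 104, 138, and 132 FPKM in Th0 and at 88.8, 101, 126, and 109 FPKM in Th17 libraries (-0.19, limma adjusted p = 0.40), lower in each of the 4 heading beginnings. In iTreg libraries it was at 116, 116, 151, and 156 FPKM against 110, 103, 136, and 130 FPKM in Th0 (0.16, limma adjusted p = 0.52). Neither difference was called with or without the heading block. Psme4 was at 17.8, 18.1, 21.4, and 20.2 FPKM in Th0, at 21.0, 19.9, 23.6, and 25.8 FPKM in Th17 (0.21, limma adjusted p = 0.26), and at 17.8, 17.3, 19.4, and 23.8 FPKM in iTreg libraries (0.02, limma adjusted p = 0.93).

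**Figure D4:**
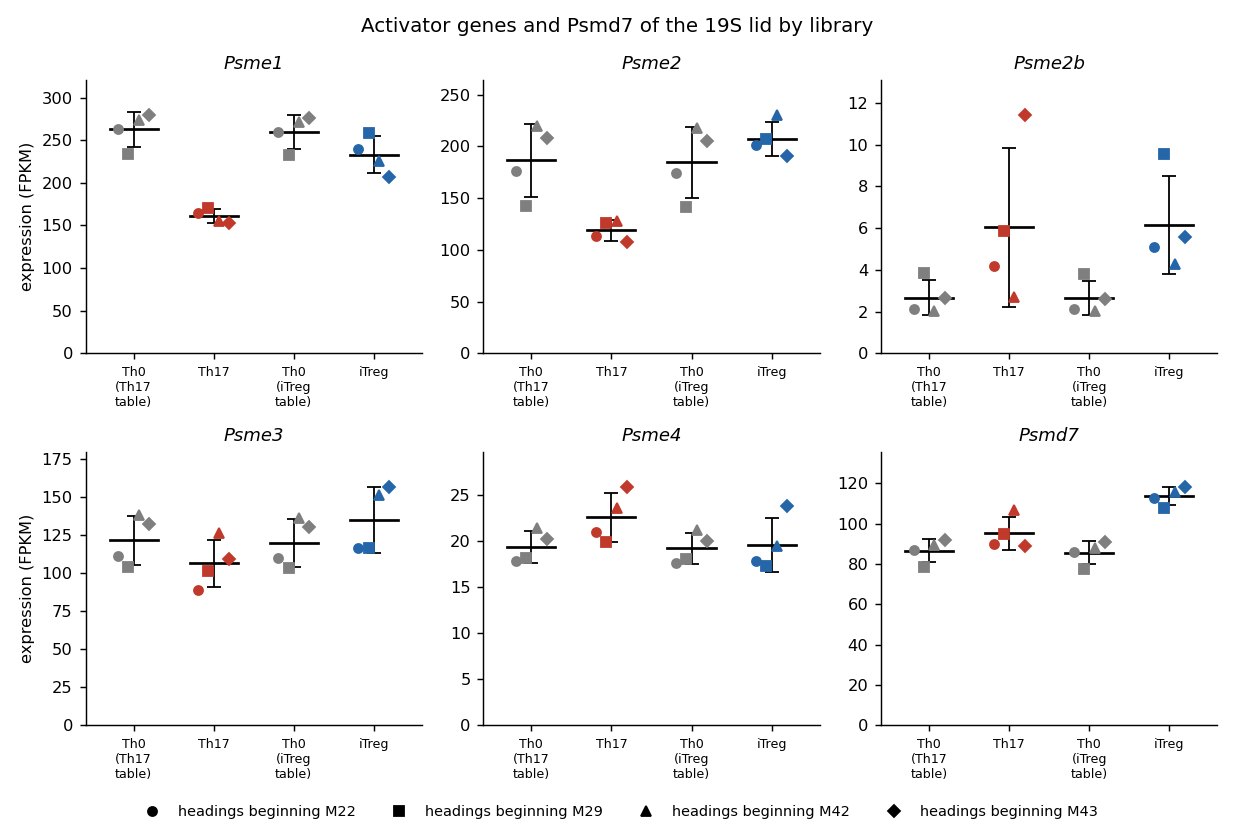
Expression in FPKM (vertical axes, starting at 0) of the 5 activator genes and the lid gene Psmd7 in each library, with the 4 Th0 libraries shown once for each table, bars for mean ± SD, and a marker shape for each heading beginning. Psme1 and Psme2 are below all Th0 libraries in all 4 Th17 libraries, and Psme2b and Psmd7 are above all Th0 libraries in all 4 iTreg libraries.

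The 14 constitutive core genes, which comprise the 3 constitutive catalytic genes, the 7 alpha subunit genes Psma1 to Psma7, and the non-catalytic beta subunit genes Psmb1 to Psmb4, had Th0 means of 90.5 to 241 FPKM. In Th17 cells limma called 0 of 14, and 0 had an unadjusted p under 0.05 or were called with the heading block. Their log2 fold changes ran from -0.23 (Psma6) to 0.05 (Psmb3), with a median of -0.13 and 12 of 14 below 0. The confidence intervals lay between -0.58 and 0.45. In iTreg cells all 14 log2 fold changes were above 0, from 0.04 (Psma3) to 0.36 (Psmb7), with a median of 0.13, and limma called 0 of 14 without and 3 with the heading block, a share near the 20.9% of all tested genes called higher with it. Those 3, all higher, were Psmb7, Psmb3 (0.32, limma adjusted p = 0.026 with the block), and Psmb2 (0.26, limma adjusted p = 0.036 with the block). Among all tested genes 51.6% had a log2 fold change above 0 in the iTreg and 49.9% in the Th17 comparison.

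The base, with the ATPase genes Psmc1 to Psmc6, the scaffold genes Psmd1 and Psmd2, and the ubiquitin receptor gene Psmd4, and the lid, with its scaffold genes and the deubiquitinase gene Psmd14, gave 17 genes. In Th17 cells limma called 0 of 17, with or without the heading block, and 1 had an unadjusted p under 0.05. The median log2 fold change was 0.05, the range -0.19 (Psmd14) to 0.24 (Psmd3). In iTreg cells all 17 log2 fold changes were above 0, with a median of 0.21, and 12 of the 17 genes were higher in the iTreg library of each of the 4 heading beginnings, against 29.1% of all tested genes. Without the block 1 of 17 was called, against 8.36% of all tested genes called higher. At an unadjusted p under 0.05 there were 7, with no share of all tested genes to set beside them. With the block 8 of 17 were called, all higher, against 20.9% of all tested genes, and they were 6 of the 8 lid genes (Psmd3, Psmd6, Psmd7, Psmd8, Psmd11, and Psmd12) and 2 of the 9 base genes (Psmc2 and Psmd4).

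Psmd7, a scaffold subunit gene of the lid that pairs with the deubiquitinase PSMD14, was at 86.1, 77.7, 88.2, and 90.8 FPKM in Th0 and at 113, 108, 116, and 118 FPKM in iTreg libraries. The groups did not overlap, the log2 fold change was 0.41 (SE 0.09, limma adjusted p = 0.015), and the call held with any single library left out (0.36 to 0.43). Psmd8, also of the lid, had the largest log2 difference of the base and lid genes in iTreg cells, from 101, 101, 136, and 131 FPKM in Th0 to 136, 144, 186, and 172 FPKM in iTreg libraries (0.45, SE 0.15, limma adjusted p = 0.077). With the block its adjusted p was 0.0020. In Th17 libraries Psmd7 was at 90.1, 94.7, 107, and 89.2 FPKM (0.13, limma adjusted p = 0.42) and Psmd8 at 112, 114, 143, and 114 FPKM (0.03, limma adjusted p = 0.90).

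**Figure D5:**
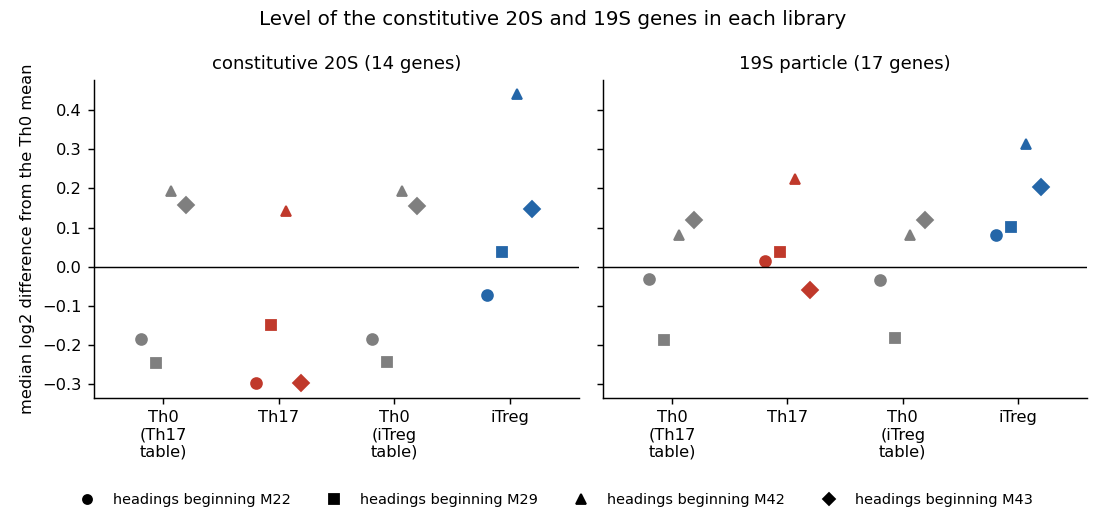
Median over the 14 constitutive core genes (left) and the 17 base and lid genes (right) of the log2 difference from the Th0 mean of the same table (vertical axis) in each library, with a marker shape for each heading beginning. The iTreg libraries sit between -0.07 and 0.44 for the core and between 0.08 and 0.31 for the base and lid, and in each beginning except M43 of the core the iTreg library is above its Th0 library.

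Within groups, core genes varied together from library to library. After centring on group means, the correlation of log2 values over the 8 libraries had a median of 0.884 over the 91 pairs of constitutive core genes in either table, of 0.771 (Th17 table) and 0.735 (iTreg table) over the 136 pairs of base and lid genes, and of -0.0013 and -0.00013 over all pairs of tested genes. Both tables share the Th0 libraries, and all genes of a library share its depth and culture. The core, base, and lid genes counted above against shares of all tested genes are thus not independent of each other. In Th0 the core was high in M42 and M43 and low in M22 and M29. With the core genes the median correlation was 0.81 and 0.78 for Psme2, 0.416 and 0.144 for Psme1, -0.02 and -0.22 for Psmb8, 0.571 and -0.013 for Psmb9, and -0.30 and -0.32 for Psmb10 (Th17 and iTreg table). The correlation of Psmb8 with Psmb9 was 0.758 and 0.814. These correlations describe 8 libraries and were not tested.

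The 3 assembly chaperone genes Psmd5, Psmd9, and Psmd10 had Th0 means of 11.8 to 27.5 FPKM, and none was called by limma in either comparison, with or without the heading block or at an unadjusted p under 0.05. Psmc3ip, a recombination factor gene that the symbol rule takes in, was at 15.9, 13.5, 20.9, and 15.5 FPKM in Th0 and at 8.83, 12.0, 17.4, and 10.1 FPKM in Th17 libraries (-0.45, limma adjusted p = 0.18 without and 0.029 with the block). In iTreg libraries it was at 10.2, 8.64, 14.7, and 10.6 FPKM (-0.53, limma adjusted p = 0.077 without and 0.0011 with the block). It was lower in the polarized library of each of the 4 heading beginnings in both comparisons. Psmc3ip shares 21.2% of its exonic bases with Mlx.

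Genes that work beside the proteasome were counted from lists. Of 12 assembly and associated genes tested, limma called 0 in Th17 cells (0 at an unadjusted p under 0.05) and 1 in iTreg cells, the ubiquitin receptor gene Adrm1, which rose from 79.4 ± 1.61 to 104 ± 6.4 FPKM (0.38, limma adjusted p = 0.017, or 0.056 without iTreg M22). Of all tested genes 10.6% were called higher in Th17 and 8.36% in iTreg cells. Of 5 regulators, 3 were higher in Th17 cells. Stat3, which transmits the IL6 signal, rose from 52.2 ± 2.7 to 163 ± 8.13 FPKM (1.62, limma adjusted p = 1.1e-05), and Nfe2l2, the antioxidant response factor gene, rose by 0.63 (limma adjusted p = 0.029) and Ddi2, the protease gene that acts on NFE2L1, by 0.51 (limma adjusted p = 0.017). The Nfe2l2 call held without Th0 M29 or Th17 M42 and was lost without any other single library (limma adjusted p up to 0.081). In iTreg cells only Stat3 of these 5 was called (0.65, limma adjusted p = 0.0011). Nfe2l1, known as the factor that raises proteasome genes when proteasome activity is short, had log2 differences of -0.01 in Th17 and 0.18 in iTreg cells (limma adjusted p of 0.99 and 0.75).

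Of 12 genes for loading and presenting peptides on MHC class I, limma called 0 in either comparison, and 0 had an unadjusted p under 0.05. With the heading block 3 were lower in Th17 cells (Tap2, Tapbpl, and Erap1) and 3 higher in iTreg cells (B2m, Calr, and Canx), beside 18.6% and 20.9% of all tested genes. Tap1, the neighbour of Psmb9, was at 57.5, 50.2, 29.6, and 67.5 FPKM in Th0 and at 53.8, 52.6, 26.2, and 67.6 FPKM in Th17 libraries (-0.05, limma adjusted p = 0.94), with M42 the lowest in both groups. In iTreg libraries Tap1 was at 65.2, 83.2, 26.1, and 61.3 FPKM (0.16, limma adjusted p = 0.82).

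Genes of the interferon γ axis, a list with receptor and kinase genes besides response genes, moved in both directions. Of 17 tested, 4 were higher and 3 lower in Th17 cells, and 5 were higher and 2 lower in iTreg cells. Among all tested genes 10.6% were called higher and 8.69% lower in Th17 cells, and 8.36% and 8.21% in iTreg cells. Irf1, a factor known to drive immune subunit genes, had log2 differences of 0.50 in Th17 (limma adjusted p = 0.067) and 0.12 in iTreg cells (limma adjusted p = 0.92). Socs1, a feedback inhibitor of the pathway, rose by 1.72 and 1.29 (limma adjusted p of 0.00060 and 0.0019). The guanylate-binding protein gene Gbp4 fell from 20.2 ± 3.26 to 5.08 ± 1.54 FPKM in Th17 cells (-1.83, limma adjusted p = 0.00031), where Gbp7 (-1.47) and Gbp5 (-1.42) also fell (limma adjusted p of 0.0037 and 0.016). In iTreg cells Irf8 rose from 7.7 ± 5.2 to 178 ± 52.5 FPKM (4.57, limma adjusted p = 0.00045) and Irgm1 by 1.37 (limma adjusted p = 0.0093), while Gbp5 fell (-1.26, limma adjusted p = 0.037). That Gbp5 call held without either M29 library and was lost without any other single library (limma adjusted p up to 0.099).

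Among the markers of other cells, Cd74, the invariant chain of MHC class II in antigen-presenting cells, was lower in Th17 cells, at 8.23, 3.15, 0.484, and 1.1 FPKM against 25.1, 23.2, 11.4, and 24.8 FPKM in Th0 (-2.68, limma adjusted p = 0.0083). In iTreg cells Cd74 was at 15.0, 9.01, 14.9, and 34.3 FPKM (-0.28, limma adjusted p = 0.69), whereas H2-Ab1 was lower (-1.69, limma adjusted p = 0.019, or 0.056 without iTreg M22). The myeloid marker Cd68 went the other way in Th17 cells, at 15.9, 7.33, 5.46, and 6.97 FPKM against 3.98, 4.9, 3.22, and 4.12 FPKM in Th0, without overlap (0.88, limma adjusted p = 0.055 without and 0.019 with the heading block). The B cell marker Cd79a was at 0.646 to 3.84 FPKM in Th0 and 0.586 to 2.49 FPKM in Th17 libraries.

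The T cell markers tested were Cd3d, Cd3e, Cd3g, and Cd4, 4 of 7 on the list. All 4 had lower values than Th0 in each of the 4 heading beginnings in both comparisons. Of all tested genes, 26.9% in Th17 and 27.4% in iTreg cells were lower in each beginning. The median log2 fold changes of the 4 markers were -0.63 in Th17 and -0.49 in iTreg cells. Their summed level was 668 to 1460 FPKM in Th0 and 443 to 836 FPKM in Th17 libraries, and 660 to 1450 FPKM in Th0 and 559 to 827 FPKM in iTreg libraries of the other table, so the groups overlapped. Without the block limma called Cd4 in Th17 cells (-1.54, limma adjusted p = 0.038), a call that held without Th0 M42 and was lost without any other single library (limma adjusted p up to 0.10), and 0 in iTreg cells, where 1 had an unadjusted p under 0.05. With the block Cd3d, Cd3g, and Cd4 were lower in Th17 and Cd3d, Cd3e, and Cd3g in iTreg cells. Of all tested genes 18.6% and 20% were called lower with the block, and 8.69% and 8.21% without it. The part of T cell marker levels or of other cells in the lower Psmb8, Psmb9, Psme1, and Psme2 levels was not tested.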

How the data were processed

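RNA from 4 independent cultures each of Th0, Th17, and iTreg cells (12 libraries) was sequenced by the authors, mapped with TopHat2 2.0.14 to mm10, and counted on exons with HTSeq without strand. The authors deposited FPKM values in 2 tables of 8 libraries, scaled separately. How FPKM was made from the counts was not given in the sources used here, nor was the annotation. The tables also hold the results of the authors' edgeR comparison (log2 fold changes, average CPM, test statistics, p-values, and FDR), which were not used. Counts were not used here, so counting error per gene is unknown.

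A gene was tested where at least 4 libraries exceeded 1 FPKM. The test was limma 3.58.1 (R 4.3.3) on log2(FPKM + 1) with no trend, Benjamini-Hochberg adjustment over all tested genes, and calls at an adjusted p of 0.05. This scale understates changes of low genes. Fits were checked on simulated data. Ratios were compared by exact permutation tests in Python 3.11.15 with scipy 1.17.1, and figures were drawn with matplotlib 3.10.9. Levels were tested only within a table, because the same Th0 values differed between tables by constant factors (0.988 to 0.991), and ratios within a library, which such factors do not change, were also compared between tables.

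Headings give groups by their endings. The labels number 4 experiments, but headings carry no such number, and the sources do not say what the heading beginnings mark. Deviations from group means correlated at 0.450 to 0.784 (Th17) and 0.662 to 0.769 (iTreg) between libraries of the same beginning, each above 0.1. Between libraries of different beginnings the correlations ran from -0.590 to 0.434 (median -0.318) and from -0.576 to 0.248 (median -0.344). Centring on group means by itself lowers these latter values where libraries of the same beginning correlate. A replicate block on the beginning was therefore fitted as an alternative. The authors tested with a pairwise design, and the labels tie the groups by experiment, so the cultures are paired by design. That the beginnings are those experiments is inferred from the correlations, and the model without the block was kept as the main one. The main limma fits and the ratio tests thus treat the libraries as unpaired. Other alternatives were a pseudocount of 0.1, no filter, median-of-ratios rescaling, limma with trend, an FDR of 0.01, and leaving out each library.

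The 43 genes and the lists were chosen with earlier results of these data known. Library values are printed for the catalytic and activator genes and for every gene called in either comparison, and for the list genes with the largest called changes (at most 4 a list) besides Tap1, Irf1, and Nfe2l1. Some list genes that this rule names are not reported here. Psmd8 and Psmc3ip were added after their values were seen. Gene positions are from GENCODE on GRCm38, and promoter windows from RefSeq on GRCm38.p6. All 43 symbols were placed, and 14 share exonic bases with another gene, 6 of them over 10%.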

Additional observations from a re-analysis of the deposited data

Results flagged for a closer look

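In 8 of 129 sets of 4 values (a gene in a group) 1 library stood far from the other 3, where chance gives about 1 in 20, or 6.45. For 5 genes this was Th17 M42, which was high: Psma6 at 169 FPKM (next library 128), Psmb1 at 220 (174), Psmd6 at 89.6 (72.3), Psmd8 at 143 (114), and Psmd13 at 92.9 FPKM (71.6). The 5 values share 1 library and are not independent. Psmc5, a base ATPase gene, was low in Th17 M43, at 103 FPKM against 134 in the next library. In Th0, Psmd5 was low in M29, at 24.3 FPKM (28.2), and Psmd9 high in M42, at 13.8 FPKM (11.3). None of these 8 genes was called in Th17 cells by limma, and Psmd5 and Psmd9 were not called in iTreg cells either.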

How the results depend on the processing

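The counts of proteasome genes called did not change with a pseudocount of 0.1, without the filter, with median-of-ratios rescaling, or with the trend option. In Th17 cells the replicate block gave 6 called genes, of which 1 was higher, and an FDR of 0.01 gave 3, without Psme2. Leaving out single libraries gave 3 to 6 called, 0 to 1 higher and 3 to 5 lower, with Psme2 lost without Th17 M22, Th17 M43, Th0 M42, or Th0 M43. In iTreg cells 0 were called in either direction at an FDR of 0.01, and with the replicate block 14 were called, 12 higher and 2 lower. Leaving out single libraries there gave 1 to 4 called, 1 to 2 higher and 0 to 2 lower. Psmb8 and Psme2b lost their iTreg calls without Th0 M22, Th0 M43, or iTreg M43, and Psme2b also without Th0 M42, while Psmd7 kept its call. Some differences near 0 changed sign when single libraries were left out: in Th17 cells Psmb5 (-0.21 to 0.0042), Psmb10 (-0.17 to 0.053), Psmd8 (-0.051 to 0.11), and Psmd11 (-0.068 to 0.020), and in iTreg cells Psmb10 (-0.19 to 0.033) and Psme4 (-0.071 to 0.077). The 9 ratio differences moved by less than 1 pooled SD when single libraries were left out, though 2 then changed sign, Psmb10 to Psmb7 in Th17 against Th0 cells (-0.032 to 0.30) and Psmb9 to Psmb6 in Th17 against iTreg cells (-0.25 to 0.065), and on log2(FPKM + 1) none passed 0.05 after adjustment. With the heading beginnings paired the mean differences are identical, and 4 pairs cannot give an exact p below 0.125, so no paired test of the ratios was made. Over all tested genes the block raised the number called from 1983 to 3882 (Th17) and from 1691 to 4170 (iTreg), and an FDR of 0.01 lowered it to 995 and 778. Without counts, what depth adds to the error of single values is unknown.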
